A study of Mus musculus with 2 samples.

Results

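The simple epithelial keratins Krt7, Krt8, Krt18, Krt19, Krt20 and Krt23 were read on 2 Agilent whole mouse arrays that compared prostaspheres with and without Sox9. They were chosen by gene symbol among the spots that are not controls, and are 6 of the 44 genes with a Krt symbol and of the 27827 gene names on the array. The 6 genes were measured by 8 probes, because Krt7 and Krt8 have a second probe, and each probe had 1 spot on an array. All 8 probes were well above background in all 4 RNAs, and 0 of their spots were saturated.

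Prostaspheres, which are hollow or solid balls of prostate epithelial cells, were grown from urogenital sinus epithelium taken 16 days post conception. The cells, on a C57/Bl6J background, spent 6 days in Matrigel with dihydrotestosterone (DHT) and 6 further days with 5 micromolar Tamoxifen (TAM) or with vehicle. In ER-Sox9flox/flox cells TAM activates a Cre recombinase that is expressed from the Rosa26 locus and cuts both floxed copies of Sox9. The genotype comparison paired TAM-treated wild-type cells, in the Cy5 channel, with TAM-treated ER-Sox9flox/flox cells, in Cy3. Both RNAs of that array therefore came from TAM-treated cells, but they differ in every allele of the line, Cre included. The treatment comparison paired ER-Sox9flox/flox cells given vehicle, in Cy5, with the same kind of cells given TAM, in Cy3, so its RNAs share the line and differ in TAM as well as in Sox9. The labels do not tell how many animals or cultures gave each RNA, and no p-value below measures the spread between animals or cultures. The p-values and intervals of limma combine the spread between these 2 arrays with a spread pooled over all probes. The pooled part had 2.802 degrees of freedom, beside 1 from the arrays, so these intervals do not come from the 2 ratios of a probe alone. The deposited labels place the source in the embryo, whereas the methods of the study describe its prostasphere assay for adult prostate cells.

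No array had the dyes swapped, so a dye effect and the difference between the RNAs cannot be told apart. Ratios are given as log2 of Sox9-expressing over Sox9-deleted RNA. A negative value is a level that is higher in the Sox9-deleted RNA. The source names of the labels call each Cy5 RNA SOX9 and each Cy3 RNA a control, and reading them as the deleted gene would turn every sign. Titles, genotypes and treatments were used instead. With that assignment the brightest Sox9 probe was higher in the Sox9-expressing RNA on both arrays, by a mean log2 ratio of 2.53 ± 0.23 (SD, n = 2), another was higher by 1.22, and the last read -1.11.

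Keratins are the intermediate filament proteins of epithelial cells. A filament is built from pairs of 1 type I and 1 type II keratin, and the pair changes with the kind of epithelium. Krt8 (type II) and Krt18 (type I) form the first and most widespread pair of simple epithelia, Krt7 (type II) and Krt19 (type I) join them in ducts and glands, and Krt20 (type I) is a keratin of intestinal surface cells and of urothelial umbrella cells. Krt23 is a type I keratin that was found later and is less well understood. In the prostate Krt8 and Krt18 mark luminal cells, and Krt5 with Krt14 marks basal cells.

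The probes are 60 bases each, and where they lie bears on what the ratios read. The following are shown for the member with the largest ratio, for the Krt8 and Krt18 pair, for Krt19, and for the probe of Krt7 that differed from its partner. In the Krt18 and Krt8 probes the capitals mark the TGA stop that closes an open frame, of 48 bases in Krt18 and 30 bases in Krt8. The other 3 lines have no part marked. 
Krt23: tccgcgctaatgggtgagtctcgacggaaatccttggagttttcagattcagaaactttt
Krt18: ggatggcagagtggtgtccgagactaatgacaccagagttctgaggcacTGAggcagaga
Krt8: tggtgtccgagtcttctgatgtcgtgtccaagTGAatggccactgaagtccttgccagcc
Krt7, second probe: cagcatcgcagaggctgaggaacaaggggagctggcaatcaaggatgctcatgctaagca
Krt19: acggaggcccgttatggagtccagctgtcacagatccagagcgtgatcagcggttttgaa
The array files, which name no genome build, place the Krt23 probe at chromosome 11, 99339393 to 99339452 on the minus strand, and the Krt19 probe on the same strand at 100002392 to 100002451. On chromosome 15 they place the Krt18 probe at 101862341 to 101862400 and this Krt7 probe at 101253718 to 101253777, both on the plus strand, and this Krt8 probe at 101827346 to 101827405 on the minus strand. The GC content of the 5 printed probes was 45.0% to 55.0%, and the median over all probes of the array was 40.0%.

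Krt23 had the largest difference among the members and was the only 1 of the 6 that differed at least 2-fold in the same direction on both arrays, a count that was 0 with median centring in place of loess. The scanned intensity of Krt23 in Cy5 was 3743 in wild-type cells with TAM and 7946 in ER-Sox9flox/flox cells with vehicle. In Cy3, the Sox9-deleted cells read 12700 on the genotype array and 10990 on the treatment array. The dyes differ in brightness, so only values of 1 dye can be set side by side before normalization. After normalization the genotype comparison gave a log2 ratio of -2.77, which is 6.81-fold lower in the Sox9-expressing RNA. The treatment comparison gave -1.56, or 2.96-fold lower. Both Sox9-deleted RNAs were above both Sox9-expressing RNAs on the normalized scale. The mean was -2.17 ± 0.85 (SD, n = 2), with a 95% interval of -3.06 to -1.27 from limma. The adjusted p of limma was 0.130 over all tested probes, above the threshold of 0.05.

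**Figure D1:**
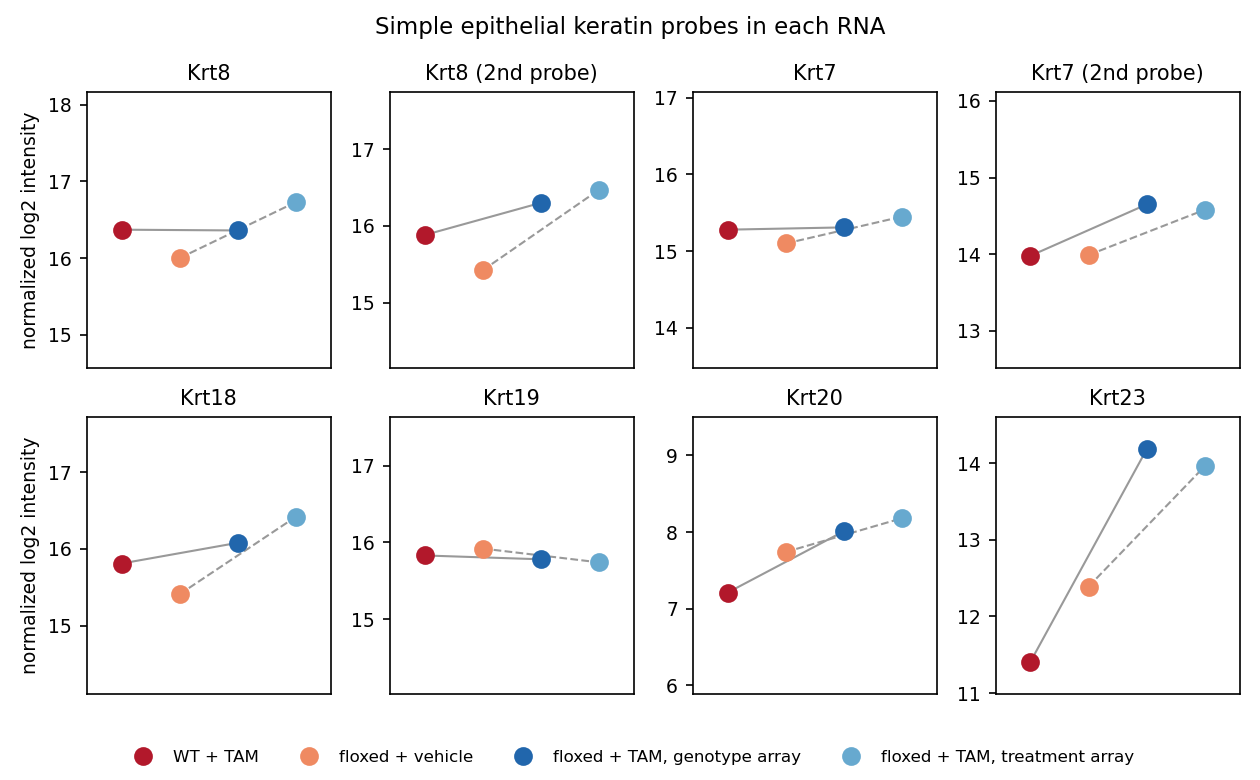
Normalized log2 intensity of each simple epithelial keratin probe in the 4 RNAs, where each panel covers the same span of log2 units on its own range and a line joins the RNAs of 1 array (solid, genotype comparison; dashed, treatment comparison). The Krt23 panel shows 11.41 in wild-type cells with TAM (WT + TAM) and 12.39 with vehicle, below 14.18 and 13.96 in the Sox9-deleted RNAs (floxed + TAM), while the Krt19 panel is nearly flat.

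The gap between the ratios of Krt23 lay mainly in Cy5. On the normalized scale the vehicle RNA was 0.98 log2 above the wild-type RNA with TAM, whereas the Sox9-deleted RNA of the treatment array was 0.22 log2 below that of the genotype array, a difference of -0.22. Over all 22731 tested probes the absolute Cy5 difference between arrays had a median of 0.129 and a 95th percentile of 0.578, and the Cy3 difference had a median of 0.068 and a 95th percentile of 0.218. The vehicle and wild-type RNAs thus differed at Krt23 by more than at 95% of probes. With 1 RNA of each kind this difference was not tested.

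Of the 6 members, limma called 0 at an adjusted p under 0.05, beside 2 of 22731 probes, 0.0088% of all tested. At an unadjusted p under 0.05 by limma there were 3 of the 6 members, Krt18, Krt20 and Krt23, and 3990 of the 22731 tested probes. The 2-fold rule on both arrays took 1 member, Krt23, where 0.128% of probes were lower by that rule. Considered alone, the genotype comparison had 1 member at least 2-fold lower (0.84% of probes), and the treatment comparison had 2, Krt23 and Krt18 (0.326% of probes). Lower values on both arrays, of any size, were found for 4 of 6 members and 6 of 8 member probes, beside 32.6% of all probes. The median of the mean log2 ratio was -0.49 over the members and 0.00 over all 15131 tested genes. In bulk RNA, fewer cells of a type and less RNA per cell cannot be told apart.

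**Figure D2:**
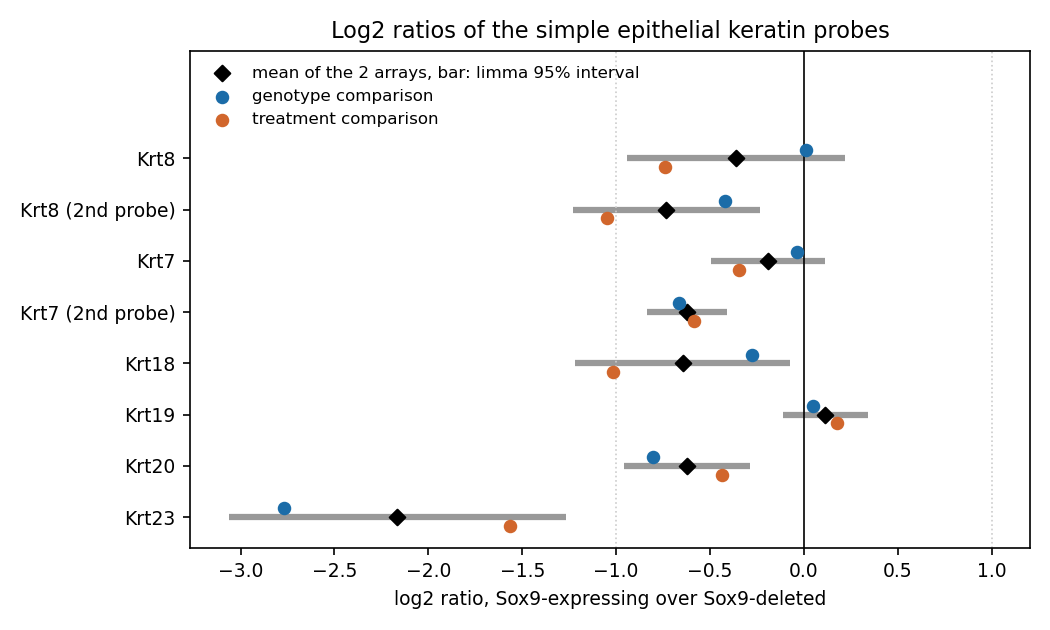
Log2 ratio of Sox9-expressing over Sox9-deleted RNA (horizontal axis) for each probe, with blue points for the genotype comparison, orange points for the treatment comparison, and diamonds with grey bars for the mean and the 95% interval of limma. Krt23 lies left of the dotted line at -1 on both arrays, and Krt18 and the second Krt8 probe do so in the treatment comparison only.

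Krt8 and Krt18, the filament pair of luminal cells, had their lower ratios in the treatment comparison. Scanned intensities of Krt18 were 84050 in wild-type cells with TAM and 69840 with vehicle (Cy5), and 45340 and 57700 in the Sox9-deleted RNAs of the genotype and treatment arrays (Cy3). The genotype comparison gave a log2 ratio of -0.28 and the treatment comparison one of -1.01, so that Krt18 averaged -0.65 ± 0.52 (SD, n = 2, 95% interval -1.22 to -0.07, adjusted p = 0.250 by limma). The Krt18 ratio had the same sign on both arrays, but its size differed between them by more than its mean.

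The brightest Krt8 probe read 126000 and 104900 in Cy5, in the same order, and 54800 and 69980 in Cy3. Genotype and treatment comparisons gave log2 ratios of 0.01 and -0.74, averaging -0.36 ± 0.53 (SD, n = 2, adjusted p = 0.431 by limma). For this probe the arrays differ in sign, and the 95% interval of the mean, -0.94 to 0.22, includes 0. The second Krt8 probe, which lies farther along the transcript, read 91090 and 70240 in Cy5 and 53880 and 59260 in Cy3. Its ratios of -0.42 and -1.05 averaged -0.73 ± 0.44 (SD, n = 2, adjusted p = 0.194 by limma). Both Krt8 probes were lower in the treatment comparison, and the brightest exceeded the second by 0.43 and 0.31 log2 on the genotype and treatment arrays. RefSeq also lists a pseudogene, Krt8-ps, and whether its RNA adds to these probes was not tested.

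For Krt18 and the brightest Krt8 probe, the gap between arrays was shared about evenly by both dyes, whereas for Krt23 it lay mainly in Cy5. Krt18 was 0.40 log2 lower with vehicle than in wild-type cells with TAM, a Cy5 difference of -0.40, and 0.34 log2 higher in the Sox9-deleted RNA of the treatment array. The Krt8 differences were -0.38 in Cy5 and 0.38 in Cy3 for the brightest probe. They were -0.46 and 0.17 for the second, where the gap also lay mainly in Cy5. The Cy3 RNAs of both arrays carry the same label, ER-Sox9flox/flox cells with TAM, so the difference of 0.34 at Krt18 is one between samples of a single condition. It was above the 95th percentile of all probes, 0.218. The Cy3 difference of Krt23, -0.22, was at about that percentile in size.

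Krt7 and Krt19 accompany that pair in ducts and glands. The brightest Krt7 probe read 57920 in wild-type cells with TAM, 54800 with vehicle, and 26910 and 29440 in the Sox9-deleted RNAs. Its log2 ratios were -0.04 and -0.34, averaging -0.19 ± 0.22 (SD, n = 2, adjusted p = 0.430 by limma), and its 95% interval ran from -0.50 to 0.12. The second Krt7 probe, which lies toward the start of the gene and reads another stretch of the transcript, gave 23070 and 24860 in Cy5 and 17080 and 16550 in Cy3. It was lower by similar amounts on both arrays, -0.66 and -0.58, averaging -0.62 ± 0.06 (SD, n = 2, 95% interval -0.84 to -0.41, adjusted p = 0.107 by limma). The Krt7 value therefore depends on the probe, from 1.14-fold to 1.54-fold lower in the Sox9-expressing RNA.

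Krt19 was the only member with a positive log2 ratio on both arrays. It read 86070 in wild-type cells with TAM and 97990 with vehicle, and 37150 and 35590 in the Sox9-deleted RNAs. The log2 ratios of Krt19 were 0.05 and 0.18, with a mean of 0.11 ± 0.09 (SD, n = 2, 95% interval -0.11 to 0.34, limma adjusted p = 0.511). Its mean turned to -0.26 and -0.18 under 2 of 10 other settings and reached 0.70 under median centring, so no direction is given here.

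Krt20, the keratin of intestinal surface and umbrella cells, gave a dim signal in every RNA. It read 126.9 in wild-type cells with TAM and 236.5 with vehicle, where the negative controls had medians of 63.2 and 58.7, and 149.4 and 164.9 in the Sox9-deleted RNAs, where they had 23.7 and 23.5. The log2 ratios were -0.80 and -0.44, averaging -0.62 ± 0.26 (SD, n = 2, 95% interval -0.96 to -0.29, adjusted p = 0.161 by limma). The offset added in background correction pulls ratios of dim probes toward 0, and with a smaller offset, of 10, the mean was -0.78. Over all alternatives it ran from -1.36 to -0.42. As with Krt23, the vehicle RNA was above the wild-type RNA with TAM, by 0.53 log2.

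Ratios were also read against probes of like brightness. Among the 200 tested probes nearest in brightness to Krt8, Krt18 and Krt19, the median log2 ratio was 0.30 on both arrays, and near Krt23 it was -0.03 and -0.05. Taken against such neighbours, an alternative added after seeing these values, the mean log2 ratios were -0.66 for Krt8, -0.94 for Krt18, -0.49 for Krt7, -0.18 for Krt19, -0.65 for Krt20 and -2.13 for Krt23. By its construction this setting subtracts about 0.30 from the brightest members, and limma again called 0 of the members.

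The treatment comparison also moved with the scaling. Centring each array on its median, in place of loess, moved the median of all tested probes to 0.38 on the treatment array and 0.02 on the genotype array. Relative to those medians Krt23 read -2.65 and -1.22, Krt18 -0.03 and -0.47, Krt20 -0.81 and -0.44, and the brightest Krt8 probe 0.28 and -0.16. The brightest Krt7 probe turned to 0.18 and 0.15, and Krt19 read 0.29 and 0.71. Without that recentring, the treatment ratio of Krt23 was -0.84, so 0 members were at least 2-fold lower on both arrays, and Krt18 read -0.01 and -0.09, close to 0.

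**Figure D3:**
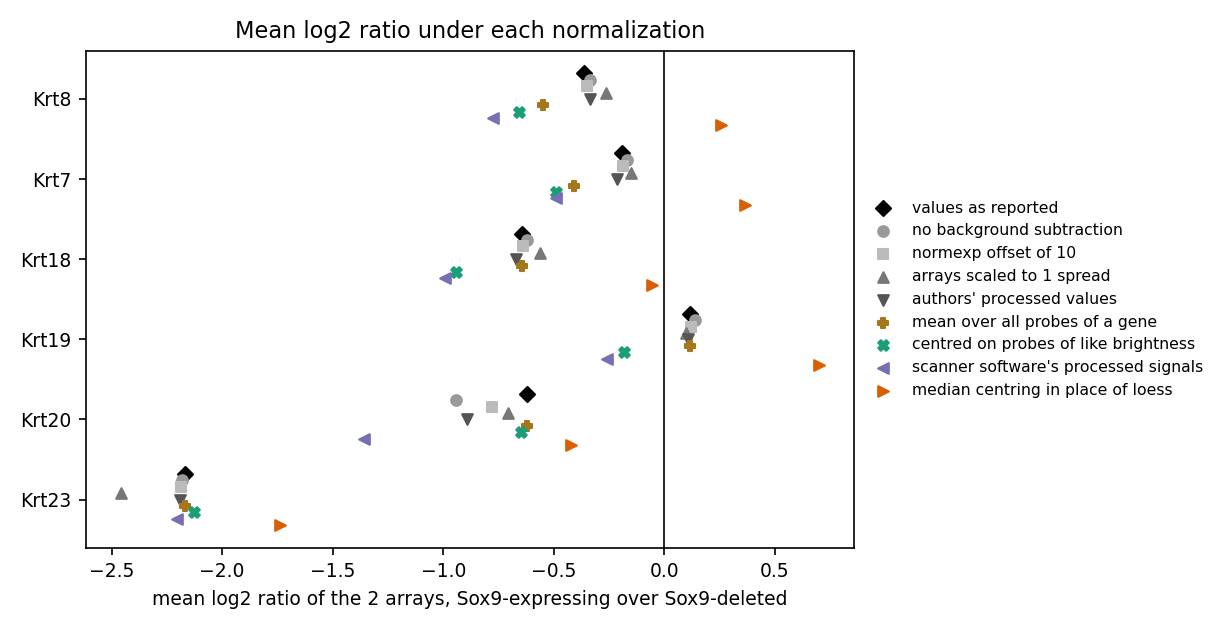
Mean log2 ratio of the 2 arrays (horizontal axis) for each simple epithelial keratin, with 1 marker for each way of background correction, normalization or probe choice. The Krt23 markers lie between -2.46 and -1.74, whereas the markers of Krt7, Krt8 and Krt19 fall on both sides of 0.

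Compared with the keratins of basal and stratified layers, the simple keratins lay at lower ratios. Over all 15131 tested genes, 33.8% were higher and 33.8% lower on both arrays, and 57 genes were at least 2-fold higher on both. Of 11 tested basal and stratified keratins, 10 were higher in the Sox9-expressing RNA on both arrays, 0 were lower on both, and 5 were at least 2-fold higher on both. Their median mean log2 ratio was 1.07, against -0.49 for the members. The highest were Krt5 (2.02 ± 0.15, SD, n = 2) and its partner Krt14 (1.96 ± 0.15), the pair of basal cells, and Krt10 (1.96 ± 0.26), a keratin of differentiating stratified cells. limma called 0 of these 11, and the adjusted p was 0.059 for Krt5 and for Krt14. The lists were not tested against each other.

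**Figure D4:**
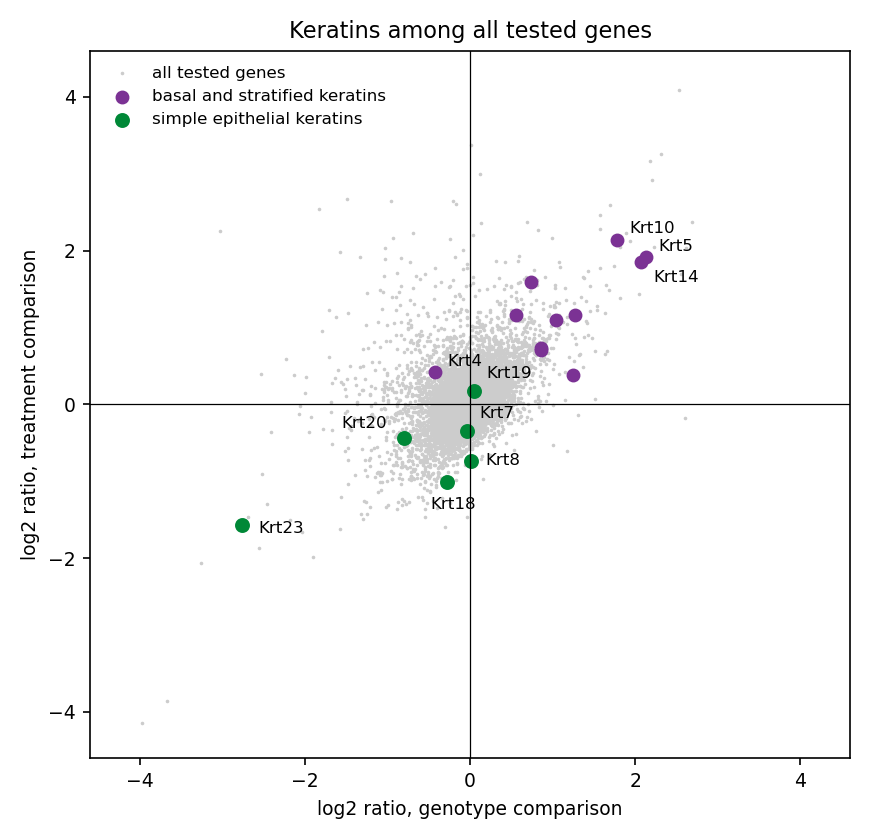
Log2 ratio of Sox9-expressing over Sox9-deleted RNA in the genotype comparison (horizontal axis) against the treatment comparison (vertical axis), with 1 point for each of the 15131 tested genes. Simple epithelial keratins (green) lie near or below 0 with Krt23 at -2.77 and -1.56, and basal and stratified keratins (purple) lie at the upper right except Krt4.

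Type I keratins other than Krt18 lie in 1 cluster on chromosome 11, and type II keratins with Krt18 lie in another on chromosome 15. In the RefSeq order Krt20 and Krt23 are adjacent, and both had negative ratios on both arrays. Krt19 lies between Krt15 (mean log2 ratio 1.07), with Krt13 (0.78) beyond it, and the untested Krt9, followed by Krt14 (1.96), so a value near 0 stood among positive ones. Krt8 and Krt18 are neighbours at the end of the chromosome 15 cluster, and Krt7 is near its other end. In all, 25 genes with a Krt symbol were tested.

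**Figure D5:**
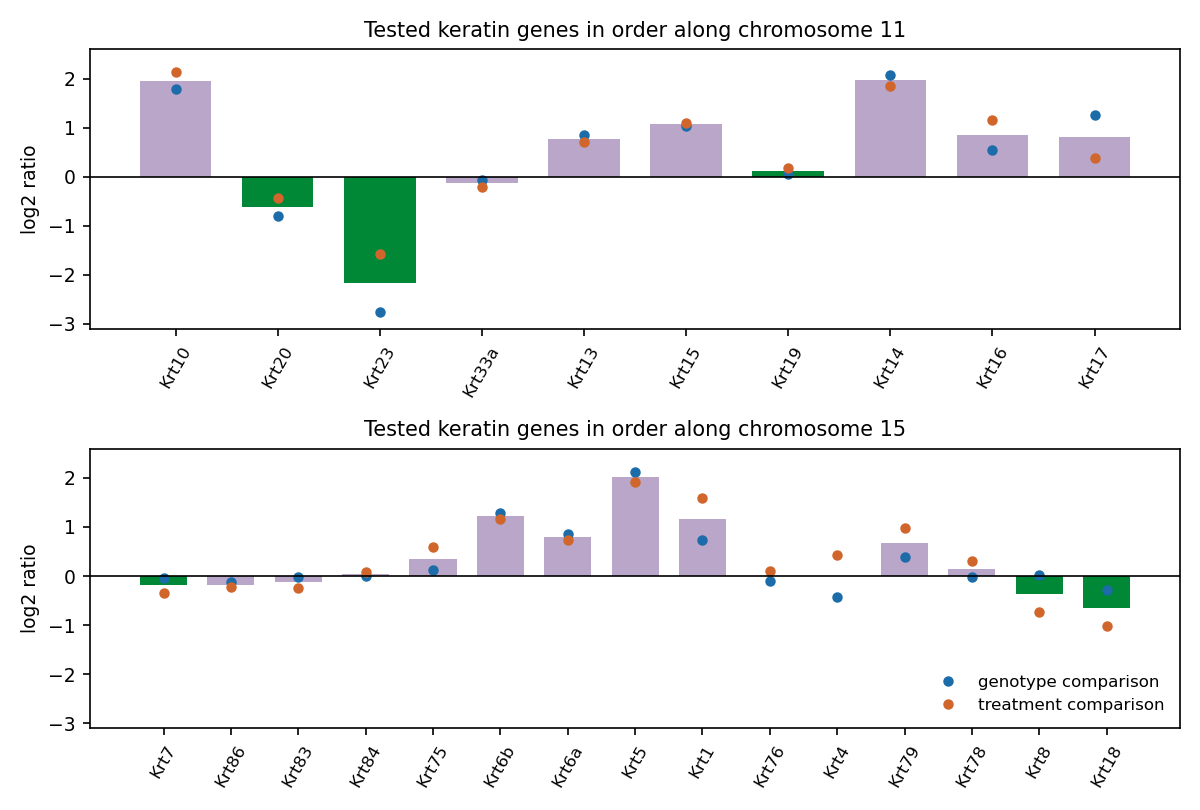
Mean log2 ratio (bars, starting at 0) and the value on each array (points) of the tested keratin genes, in their order along chromosomes 11 and 15 in the mouse RefSeq annotation, with equal spacing and not to genomic scale. Green bars are simple epithelial keratins. Krt20 and Krt23 stand next to each other below 0, and Krt19 at 0.11 stands between positive neighbours.

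The promoter of Krt23 is shown because that gene was at least 2-fold lower on both arrays and Sox9, the deleted factor, binds DNA. The RefSeq table (GRCm38.p6) held the promoter of 5 of the 6 members. The 250 bases before the Krt23 start, at chr11:99493121-99493370 on the minus strand, are written with capitals at a match to ACAATG, 1 of 3 forms of the SOX core motif searched on both strands in members and in all 32851 promoters of that length.
Krt23 promoter: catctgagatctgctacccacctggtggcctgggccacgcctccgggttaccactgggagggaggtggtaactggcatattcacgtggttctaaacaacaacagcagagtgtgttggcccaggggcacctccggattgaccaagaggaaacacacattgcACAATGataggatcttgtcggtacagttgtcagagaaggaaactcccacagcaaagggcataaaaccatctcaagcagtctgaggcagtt
ACAATG was in 10.7% of all promoters and in that of Krt23, where it begins 90 bases before the start. ACAAAG was in 16.5% of all and in that of Krt18, on the reverse strand, and AACAAT was in 9.42% of all and in 0 of the 5. These motifs can overlap each other, and at least 1 of the 3 was in 29.6% of all promoters and in 2 of the 5. A match is a run of letters and not a measured site.

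By the distance between pairs of log2 ratios, the 5 genes most like Krt23 over the 2 arrays were Cyp2b13 (distance 0.125), Saa3 (0.369), Cyp2b10 (0.405), Ivl (0.700) and Bcl2l15 (0.706). Cyp2b13 and Cyp2b10 are cytochrome P450 enzymes of drug and steroid metabolism, Saa3 is an acute phase protein, and Ivl (involucrin) is a protein of the cornified envelope. Cyp2b13 read -2.69 and -1.47, and Saa3 -2.56 and -1.87. With only 2 arrays many genes can be near. Of all tested genes 4 had a lower mean log2 ratio than Krt23.

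A list of filament partners, meant to cover genes that link keratins to desmosomes or bind them, was also counted. Over all tested genes, 33.8% had positive and 33.8% had negative log2 ratios on both arrays. Of 21 tested genes of that list, 11 had positive and 3 had negative log2 ratios on both arrays. The median of the means was 0.09. The largest were Pkp1 (1.41 ± 0.19, SD, n = 2), a plakophilin of stratified desmosomes, Dsp (0.80 ± 0.20), which anchors filaments at desmosomes, and Sfn (0.50 ± 0.09), a 14-3-3 protein of stratified epithelium. limma called 0 of them.

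Of 20 tested surface and junction genes of simple epithelium, 14 had negative and 2 had positive ratios on both arrays, where 33.8% of all tested genes were negative on both and 33.8% positive on both. The median was -0.33, and limma called 0. The 3 claudins named here, proteins of the tight junction, had the largest differences: Cldn3 at -1.27 on both arrays (mean -1.27 ± 0.004, SD, n = 2, adjusted p = 0.074 by limma), Cldn4 at -0.94 ± 0.14 and Cldn7 at -0.82 ± 0.15. Cldn3 was thus at least 2-fold lower on both arrays, like Krt23. Transcription factors of simple or glandular epithelium were divided, with 10 of 17 tested higher and 4 lower on both arrays, a median of 0.20 and 0 called by limma. Of these, Ehf, an ETS factor of epithelium, read 0.84 ± 0.46 (SD, n = 2), Ets2 -0.37 ± 0.05 and Hoxb13 0.35 ± 0.04.

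Markers of other cell types were read in the same RNAs. All 4 basal markers were at least 2-fold higher with Sox9 on each array, and their median was 1.78. Of all 15131 tested genes, 57 were at least 2-fold higher on both arrays. At any size, 33.8% of tested genes were higher on both and 33.8% lower on both. Of 6 tested luminal markers, a list that itself holds Krt8 and Krt18, 3 were lower and 2 higher on both. Of 4 tested urothelial markers 2 were lower on both arrays, Upk1b at -1.06 and Upk1a at -0.59. Psca (-1.09 and 0.74) and Upk2 (-0.16 and 0.10) were lower on the genotype array and higher on the treatment array. Upk3a was not tested. Summed over all 6 urothelial markers on the array, tested or not, intensity in Cy5 was 1515 in wild-type cells with TAM and 2991 with vehicle. In Cy3 the sums were 1907 and 1920. Of 6 intestinal markers 1 was tested, and Cdx2 was not. Of 4 immune markers on the array 2 were tested, and both were lower on both arrays. All 4, tested or not, summed to 2449 and 5045 in Cy5 and 2270 and 2891 in Cy3. Only 1 of 3 neuroendocrine and 1 of 7 seminal vesicle markers passed the filter for testing.

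Stromal and skeletal muscle markers had opposite signs on the arrays. The 7 stromal markers had median log2 ratios of -0.72 (genotype) and 0.85 (treatment), and summed to 39031 in wild-type cells with TAM and 119712 with vehicle (Cy5), and to 32699 and 29564 in Cy3. The 4 tested muscle markers had medians of -1.19 and 2.23, and the muscle list summed to 851 and 7943 in Cy5. The vehicle RNA was thus above the wild-type RNA in the scanned sums of urothelial, immune, stromal and muscle markers. Intestinal (479 and 494) and neuroendocrine (208 and 232) sums were slightly above, and basal, luminal and seminal vesicle sums were below. On the normalized scale the vehicle RNA was also above at Krt20, Krt23 and, by 0.085 log2, Krt19. It was below at Krt18, both Krt8 probes and the brightest Krt7 probe. Sums of the 6 members were 357871 and 335762 in Cy5, and 177056 and 203863 in Cy3. The part of urothelial, immune, stromal and muscle cells in the keratin ratios was not tested.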

How the data were processed

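Each array held 2 RNAs. The authors deposited scanner output of Agilent Feature Extraction 10.5.1.1 with mean and background intensity per spot and a log10 ratio, and a table of processed log2 values whose steps are not given in the sources used here. Here mean intensity was corrected with normexp (offset 50) over all spots, and control spots (1639 of 45018) were then left out. Loess (span 0.3) was applied within arrays with limma 3.58.1 (R 4.3.3). Outlier spots (126 and 130) were left out after loess. A probe was tested where it was well above background in Cy5 or in Cy3 on both arrays. The mean log2 ratio was tested 2-sided against 0 with lmFit and eBayes, with Benjamini-Hochberg adjustment over 22731 probes and 1 residual degree of freedom. A gene was read from its brightest tested probe. Levels across arrays use quantile normalization of average intensity. With so few arrays, their number limits the precision. The scripts were tested on simulated data. Sequences and figures used Python 3.11.15, pandas 2.3.3, numpy 2.4.6 and matplotlib 3.10.9.

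The members and lists were chosen with earlier results of these data known. Named genes are all members, up to 3 genes per list with the largest absolute mean ratio of 1 sign on both arrays, the 5 genes nearest to Krt23, and Sox9, and genes beside them in the chromosome order or in marker lists were named after their values were seen. Alternatives were another offset, no background subtraction, other normalizations, filters and probe choice, each array alone, and a plain t-test, the methods' t-test.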

Additional observations from a re-analysis of the deposited data

How the results depend on the processing

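The log2 ratio of Krt23 was negative on both arrays under 10 of 10 alternatives, from -2.46 to -1.74. For Krt18, Krt19, Krt20 and Krt23, with 1 probe each, other filters and averaging over probes could not change the ratio, though they are counted among the 10. Median centring in place of loess changed calls: Krt23 was then -1.74 ± 1.27 (SD, n = 2) with a limma adjusted p of 8.055e-08, so 1 member was called. Yet 0 members were at least 2-fold on both arrays, since the treatment ratio was -0.84. The SD of Krt23 was larger than with loess (0.85), so this p rests on spread pooled over all probes and not on close agreement of its 2 ratios. Median centring also left the median of all tested probes at 0.38 on the treatment array. There limma called 522 of 22731 probes, beside 2. Over the alternatives the adjusted p of Krt23 ran from 8.055e-08 to 0.311, and by the methods' t-test, after Benjamini-Hochberg adjustment, it was 0.616. Median centring also turned Krt7 to 0.36 and Krt8 to 0.26, and Krt19 turned to -0.26 with the scanner software's processed signals and to -0.18 when centred on probes of like brightness, which was chosen after seeing the data, while median centring raised it to 0.70. Each array alone gave 1 to 2 members at least 2-fold, and 0.013 to -0.737 for Krt8. Krt18 was negative on both arrays in 10 of 10 but ran from -0.99 to -0.05, the latter with median centring. No separate paired analysis was run, because each log2 ratio already pairs the RNAs of 1 array and the tests compared the mean ratio with 0. Signal over background limits Krt20, also negative in 10 of 10, which ran from -1.36 with the scanner software's processed signals to -0.42 with median centring, and read -0.94 with no background subtraction.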
